A study of Bos taurus with 30 samples.

Results

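The genes described here are BOLA-DQA1, BOLA-DQA2, BOLA-DQA5, BOLA-DQB, BOLA-DQB1 and BOLA, genes of the bovine leukocyte antigen region, measured in the skin of cattle that were tick resistant or tick susceptible. Members were taken by gene symbol, and the genes were selected on their measured levels having differed between animals: every probe set (a group of short probes on the array that reads a transcript) annotated to one of these symbols and to no other gene. That gave 13 probe sets for 6 of the 9155 genes named on the array, and 12 of the 13 passed the filter on low signal that 13809 of 24016 probe sets passed. Their differences between animals, and between the phenotypes over animals, are therefore given as a description, and nothing is supported with them. Where a gene has several probe sets they are called A, B and so on, and the plots give the identifiers of the array beside these names.

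The animals were F2 cattle bred from Gyr, a Bos indicus breed, and Holstein, a Bos taurus breed. Skin was biopsied where the ticks fed, first without ticks (0 h), then 24 h and 48 h into the infestation. Resistant animals 1 to 6 gave 5 arrays for 0 h, 6 for 24 h and 5 for 48 h, and susceptible animals 7 to 13 gave 3, 6 and 5. Of the 13 animals, 7 had all 3 times, 3 had 2 and 3 had 1. The labels do not give the families of the animals, their age or their sex, nor how the phenotype was scored. Values are log2 signals, on which a difference of 1 is a doubling, and the number of arrays limits their precision.

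The DQ molecule is a class II molecule of the major histocompatibility complex (MHC). It pairs an alpha chain, encoded by a DQA gene, with a beta chain, encoded by a DQB gene, on the surface of cells such as macrophages, dendritic cells and B cells, where it shows peptides to helper T cells. In cattle the DQ genes are highly polymorphic, and MHC haplotypes also differ in how many DQA and DQB genes they carry. The annotation gives the symbol BOLA with no class or chain, so no role is stated for it. A probe set reads a gene through short probes made from a given sequence, so a different amount of RNA and a different match of an animal's alleles to the probes cannot be told apart in these values. In the gene order of the RefSeq annotation of assembly ARS-UCD2.0, the genes on chromosome 23 run ELOVL5, BOLA-DQA2, BOLA-DQB, BOLA-DQA5, BOLA-DQB1, a gene listed with the synonym BoLA-DQA1, then BOLA-DRB3 and BOLA-DRA further along. The gene identifiers of 4 of the 6 members were found there, and those of BOLA-DQA1 and BOLA were not.

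Array medians lay between 7.17 and 7.40, and a signal below the median of its own array is called low here. The 5 keratinocyte and 5 fibroblast markers were all measured, with mean levels from 11.2 to 14.9, as in skin. Of 6 markers of dendritic and Langerhans cells none is on the array by symbol, and of 5 B cell markers 1 was measured. Animal numbers were checked with the 100 probe sets outside the MHC that varied most between animals. With the numbers in the labels, 22 of 27 arrays resembled another array of their own animal most. The 5 exceptions were the 24 h arrays of resistant animals 4 and 5 and the 0 h arrays labelled resistant 3, 4 and 5. For these 0 h arrays the correlations with their own number were -0.42, -0.09 and -0.46, against 0.91, 0.77 and 0.92 with animals 4, 5 and 6. When these 3 arrays were counted as animals 4, 5 and 6, all 27 arrays were closest to their own animal (correlations of 0.83 to 0.96). The 100 probe sets were chosen anew under each numbering, without the array being placed, so each check favours the numbering used for the choice. XIST, which is transcribed from the inactive X chromosome of females, read 2.0 at 0 h, 11.63 at 24 h and 11.48 at 48 h in the arrays labelled resistant 3. All 3 arrays stay in the resistant 0 h group under either numbering. Results that use the animal are given with the labelled numbers and with these 3 arrays renumbered, a choice made after the data were seen.

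Differences between animals made up 58.0% or more of the variance of each of the 12 probe sets under either numbering. Each probe set's variance over the 30 arrays was divided into a share between animals, a share for time within animals and a rest. With the labelled numbers the share between animals had a median of 77.5% over the 12 member probe sets (59.4 to 98.5%), against 47.6% over all 13809 probe sets. It was 93.0% (58.0 to 98.5%) with the 3 arrays renumbered, against 50.1% over all. It was 92.7% for the members with the 3 arrays left out. The term for animals holds 12 of 29 degrees of freedom, which by itself takes 41.4% of the variance of a value with no differences between animals.

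A share of 80% or more was reached by 4 of 12 member probe sets with the labelled numbers, beside 1.58% of all probe sets, and by 11 of 12 with the numbers changed, beside 3.87% of all. BOLA had 98.5% of its variance between animals under either numbering, rank 1 of 13809 with the labelled numbers and rank 2 with the numbers changed. BOLA-DQA5 moved to 97.7% with the numbers changed, against 76.7% as labelled. The lowest share, 58.0%, belonged to BOLA-DQB1 B. Time within animals accounted for 0.07 to 8.36% of the variance of the members with the numbers changed, with a median of 0.90%.

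**Figure D1:**
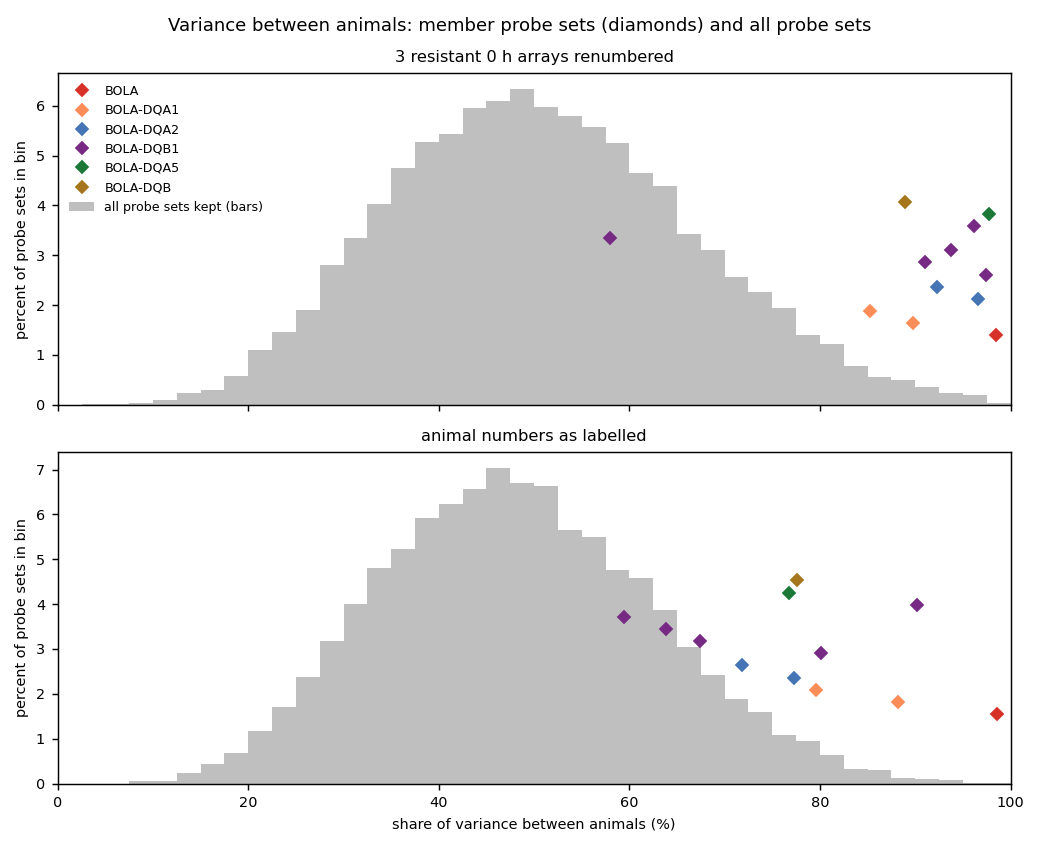
Share of each probe set's variance that lies between animals (x axis, percent) with 3 resistant 0 h arrays renumbered (upper panel) and with the labelled numbers (lower panel). Grey bars give the percent of all 13809 probe sets in each bin and diamonds the 12 member probe sets, whose height carries no value. In the upper panel 11 of 12 diamonds lie above 80%.

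The BOLA probe set read either near 12 or near 6, and every animal stayed on its side. In resistant animals it read 11.50, 12.48, 12.29, 12.61 and 12.56 at 0 h in the arrays labelled 1 to 5. At 24 h the 6 resistant arrays ran between 11.66 and 12.72 with a median of 12.51, and at 48 h the 5 arrays read 11.82, 13.11, 12.83, 13.22 and 13.39. So BOLA was high in every resistant array. Susceptible animals fell on both sides. Animal 11 read 12.77, 12.69 and 12.85 at the 3 times, and animals 8 and 12, with a 24 h array alone, read 10.96 and 11.42. Animal 9 read 7.26, 5.07 and 6.05, and animal 10 read 5.63, 6.5 and 5.78. Animal 13 read 5.47 at 24 h and 5.10 at 48 h, and animal 7, with a 48 h array alone, read 7.31. Thus 9 animals, 6 resistant and 3 susceptible, were high in all their arrays and 4 susceptible animals were below the array median in all of theirs. The lowest array of the high animals stood 3.65 log2 units above the highest array of the low ones.

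Among the alpha chain genes, BOLA-DQA5 was high in a single animal of each phenotype. With the 3 arrays renumbered, resistant animal 4 read 9.98 at 0 h and 9.88 at 24 h. Susceptible animal 10 read 11.35 at 0 h, 11.51 at 24 h and 10.73 at 48 h. The other 11 animals read 3.24 to 5.87 in 25 arrays, all below the median of their array. Under the labelled numbers the 0 h value of 9.98 belongs to resistant animal 3, whose later arrays read 4.79 and 4.54. BOLA-DQB, a beta chain gene that lies between BOLA-DQA2 and BOLA-DQA5 in the gene order, was high in animals 4 and 10 too. It read 8.49 at 0 h and 8.67 at 24 h in resistant animal 4, and 9.91, 9.98 and 8.73 in susceptible animal 10. Elsewhere its 25 arrays read 1.91 to 6.54.

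BOLA-DQA2 divided the animals in another way. BOLA-DQA2 A and B, its probe sets that passed the filter, were above the array median in animals 1, 4 and 5 of the resistant and 7, 9, 11 and 13 of the susceptible animals, and below it in animals 2, 3, 6, 8, 10 and 12, with the 3 arrays renumbered. BOLA-DQA2 A read 9.01 to 11.44 in the 17 arrays of the 7 high animals and 4.42 to 6.24 in the 13 arrays of the 6 low ones. The medians of these arrays differed by 4.52 log2 units. The other probe set of the gene, BOLA-DQA2 C, was below the median of its array in all 30 arrays and did not pass the filter. So 1 of its 3 probe sets did not show the division.

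BOLA-DQA1 A was below the array median in all arrays of 6 susceptible animals and of no resistant animal, and 3 of the 6 (8, 10 and 12) stood furthest down. In resistant animals it read 7.21, 6.64, 7.80, 6.32 and 6.98 at 0 h, 6.72 to 7.88 with a median of 7.13 at 24 h, and 7.80, 8.10, 7.29, 7.74 and 7.83 at 48 h. In susceptible animal 10 it read 4.44, 3.76 and 4.81 at the 3 times, and at 24 h animals 8 and 12 read 3.61 and 3.80. The arrays of the other susceptible animals lay between 6.42 and 7.51. At 24 h the phenotypes overlapped only through resistant animal 3, at 6.72, below susceptible animal 9, at 6.82. The other probe set of the gene, BOLA-DQA1 B, was lowest in susceptible animal 8, at 4.67, and read 5.10 to 5.97 in animal 10 and 5.62 in animal 12, but also 5.41 in susceptible animal 13 at 24 h.

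The 5 probe sets of BOLA-DQB1, a beta chain gene, gave 3 different patterns. BOLA-DQB1 D and BOLA-DQB1 C split the 13 animals exactly as BOLA-DQA2 did, and BOLA-DQB1 A did so for 12 of 13. BOLA-DQB1 D read 8.26 to 10.82 in the 17 arrays of the high animals and 1.68 to 5.51 in the 13 arrays of the low ones. BOLA-DQB1 A ran down to -0.73 in resistant animal 6 at 24 h, a value that says only that it lay far below the array median.

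BOLA-DQB1 E, of the same gene, was high in resistant animals 1, 3, 4 and 6 and susceptible animals 8 and 10, with the 3 arrays renumbered, where its 14 arrays read 8.78 to 11.39. It was low in resistant animal 5 and in susceptible animals 7, 9, 11, 12 and 13, where its 13 arrays read 1.28 to 6.56. Resistant animal 2 was on both sides of the array median, at 6.55, 6.62 and 8.26 at the 3 times. The fifth, BOLA-DQB1 B, was high in all 30 arrays, at 11.05 to 13.61. The suffixes _s_at and _x_at, which the BOLA probe set, 1 of BOLA-DQA1 and 2 of BOLA-DQB1 carry, mark probe sets with probes that other transcripts can share, and which transcripts they read was not examined. No level of BOLA-DQB1 as a gene can therefore be given.

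**Figure D2:**
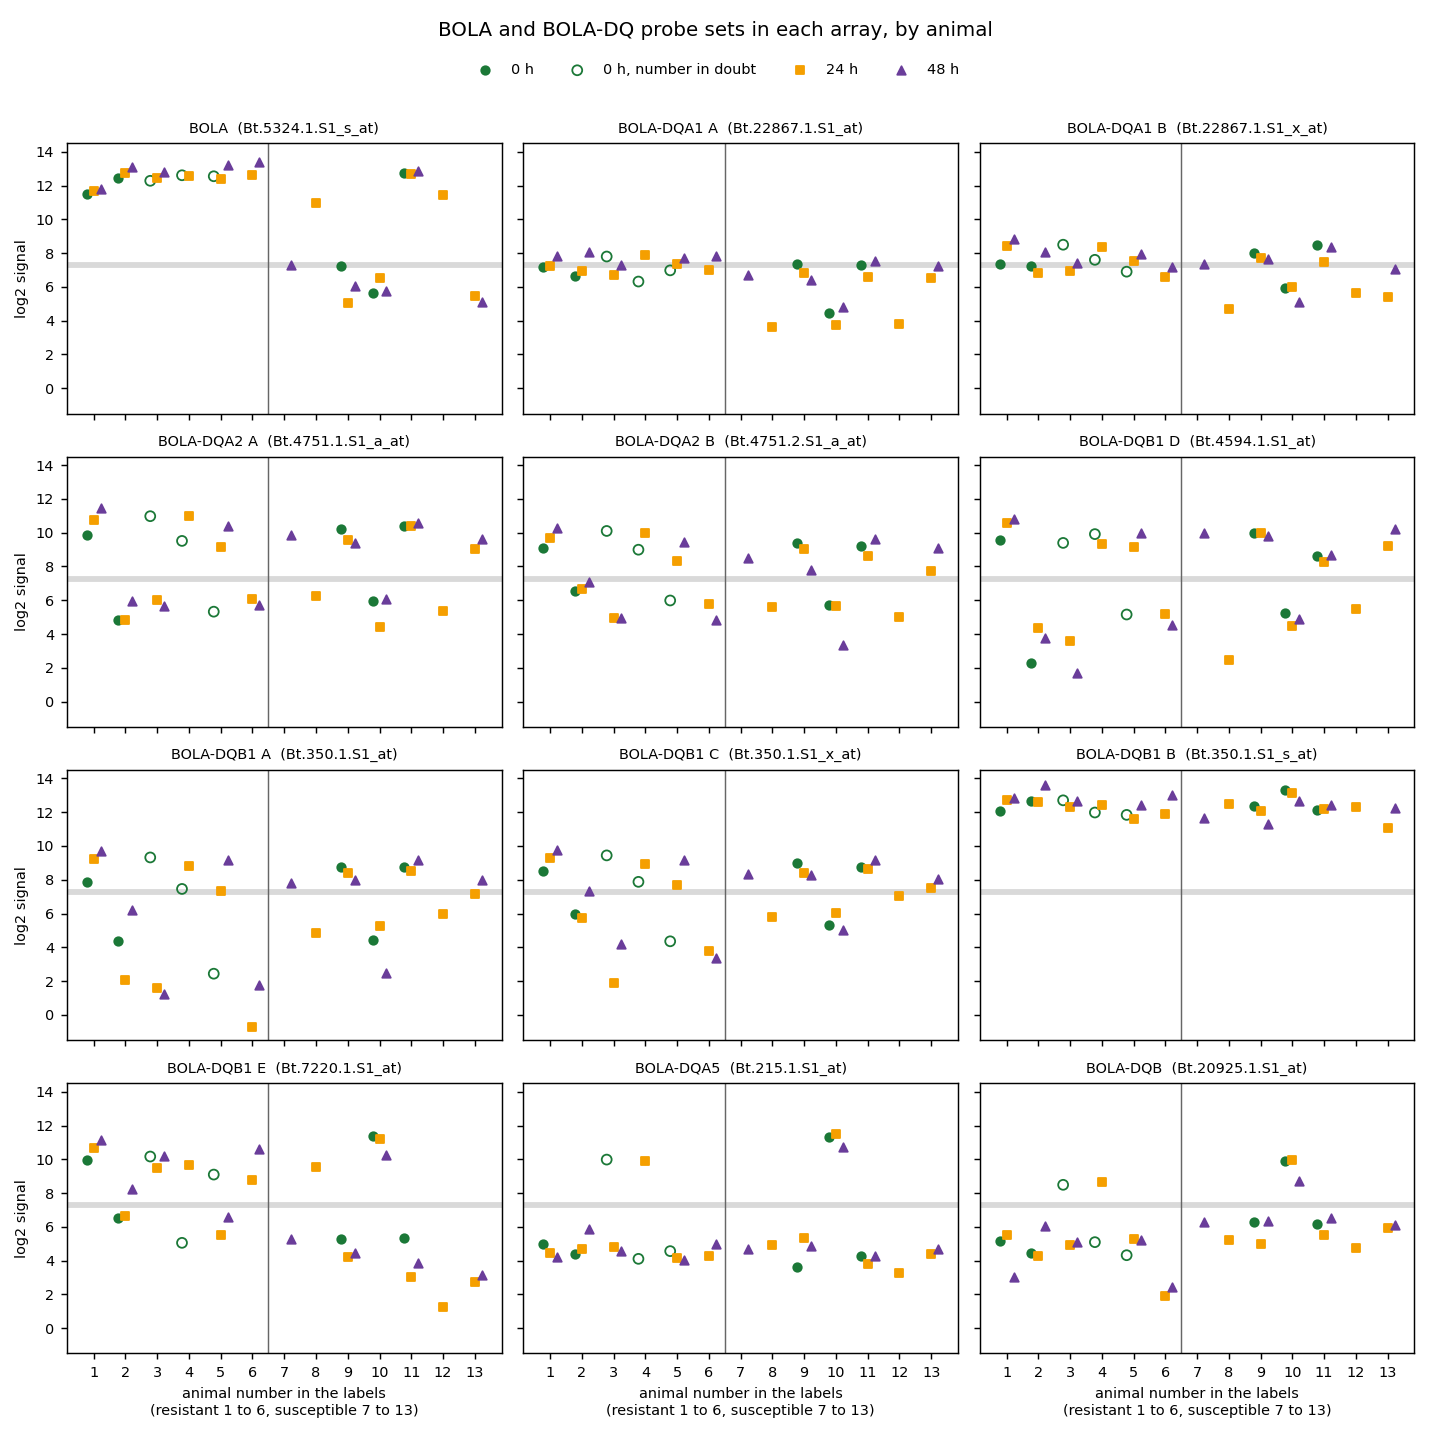
Log2 signal (y axis) of the 12 member probe sets that passed the filter in each of 30 arrays, by animal number in the labels (x axis; resistant animals left of the line, susceptible animals right of it). Marks give the time, open circles the 3 resistant 0 h arrays whose numbers are in doubt, and the grey band the range of array medians. BOLA-DQA5 and BOLA-DQB stand high in the 3 arrays of animal 10, in the 24 h array of animal 4 and in the 0 h array labelled 3, and BOLA is low in 4 susceptible animals alone.

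Taken per animal with the 3 arrays renumbered, resistant animal 4 had 12 of the 13 probe sets above the array median in all its arrays. Resistant animal 2 and susceptible animal 12 had the fewest, 2 each. A further 18 probe sets list a member together with other genes and were not counted as members. Of these, 6 passed the filter, and their share of variance between animals ran from 53.5 to 91.5% with the 3 arrays renumbered.

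Over the means of the 13 animals, with the 3 arrays renumbered, the probe sets fell into groups that followed the gene names only in part. The points share the animals and the arrays, and the correlations are descriptions. BOLA-DQA5 and BOLA-DQB had a Pearson correlation of 0.85, carried by animals 4 and 10. The 2 BOLA-DQA1 probe sets had 0.89 and the 2 BOLA-DQA2 probe sets 0.96. BOLA-DQB1 A, C and D had 0.85 to 0.99 with each other, and BOLA-DQB1 B had -0.60 to -0.34 with these 3. BOLA-DQB1 D had 0.91 and 0.88 with the BOLA-DQA2 probe sets, and BOLA-DQB1 A and C had 0.85 to 0.88 with them. BOLA-DQB1 E had -0.35 with BOLA-DQB1 D and 0.57 with BOLA-DQA5. BOLA had correlations of -0.46 to 0.37 with the 11 others.

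**Figure D3:**
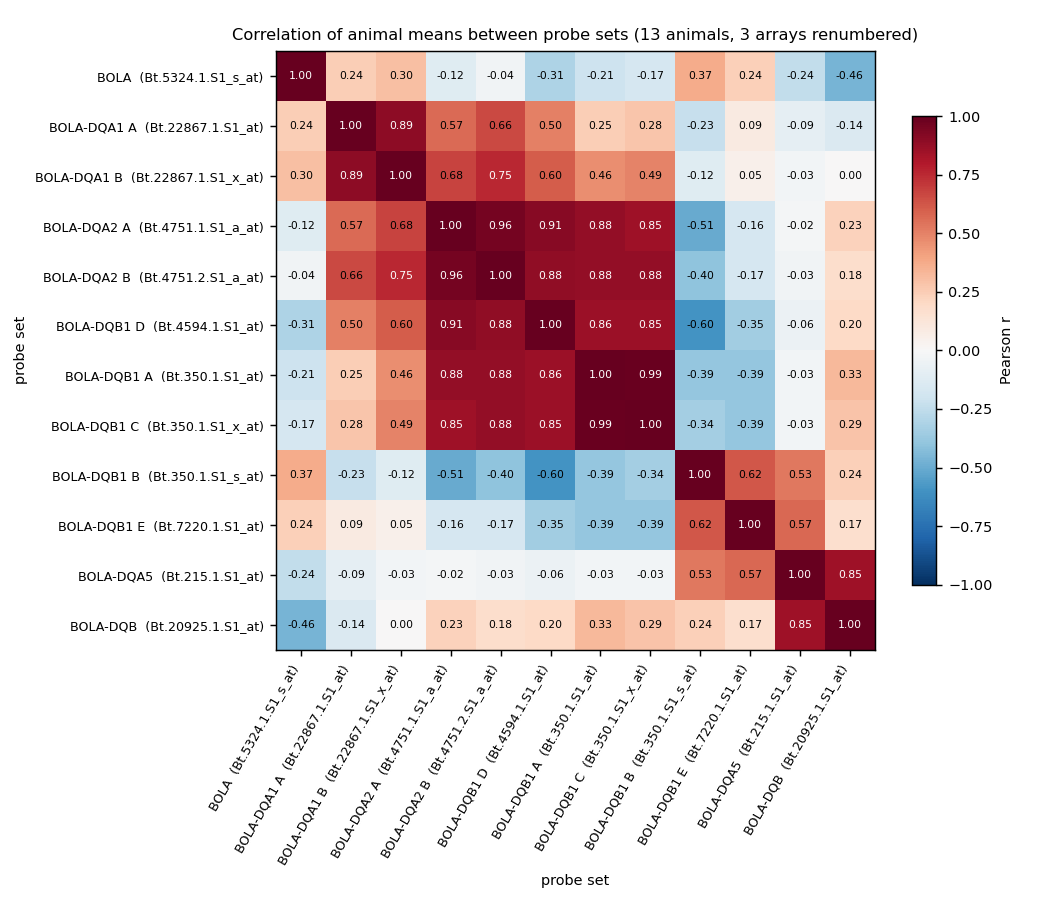
Pearson correlation (colour and printed value) between the 12 member probe sets over the means of 13 animals, with 3 resistant 0 h arrays renumbered. The 2 BOLA-DQA2 probe sets and 3 of the 5 BOLA-DQB1 probe sets form a block of 0.85 to 0.99, and BOLA-DQA5 pairs with BOLA-DQB at 0.85.

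The levels were set beside the phenotype over animals, with each animal as the mean of its arrays under the labelled numbers. The members were chosen for differing between these same animals, so these values are a description and no test is given. BOLA averaged 12.55 ± 0.47 in resistant and 8.55 ± 3.07 in susceptible animals (SD, n = 6 and 7), a difference of 4.0 log2 units. BOLA-DQA1 A averaged 7.30 ± 0.12 in resistant and 5.61 ± 1.61 in susceptible animals (SD, n = 6 and 7), a difference of 1.69. The groups overlapped for both only through susceptible animal 11. It averaged 12.77 for BOLA, against 11.66 to 13.02 in resistant animals, and 7.13 for BOLA-DQA1 A, against 7.10 to 7.42. Susceptible animals 8 and 12, also high for BOLA, lay below the resistant range, at 10.96 and 11.42. For BOLA-DQA1 A, susceptible animals 7, 9 and 13 lay below the resistant range, at 6.68 to 6.87. The range of 7.10 to 7.42 depends on the labelled numbers. With the 3 arrays renumbered, resistant animal 4 averaged 7.84, against 7.10 as labelled. BOLA-DQA1 B averaged 7.59 ± 0.46 in resistant and 6.49 ± 1.28 in susceptible animals (SD, n = 6 and 7).

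XIST moved with BOLA in part. With the 3 arrays renumbered it was low, at 5.64 or less, in 6 animals (2 resistant and 4 susceptible), of which BOLA was high in 3 and low in 3. It was high, at 10.84 or more, in 7 animals (4 resistant and 3 susceptible), of which BOLA was high in 6 and low in 1. Under the labelled numbers resistant animals 3 and 5 held both low and high XIST arrays. Its part in the difference between phenotypes was not tested.

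Of the variance between animals, with the 3 arrays renumbered, the phenotype took 46.9% for BOLA and 37.0% for BOLA-DQA1 A. It took 27.1% for BOLA-DQB1 E and 27.0% for BOLA-DQA1 B. It took 0.11% for BOLA-DQA5 and 0.00934 and 1.44% for the BOLA-DQA2 probe sets. With the labelled numbers BOLA-DQB1 E averaged 8.63 ± 1.61 in resistant and 5.54 ± 3.50 in susceptible animals (SD, n = 6 and 7). Susceptible animals 8 and 10 were at high signals.

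**Figure D4:**
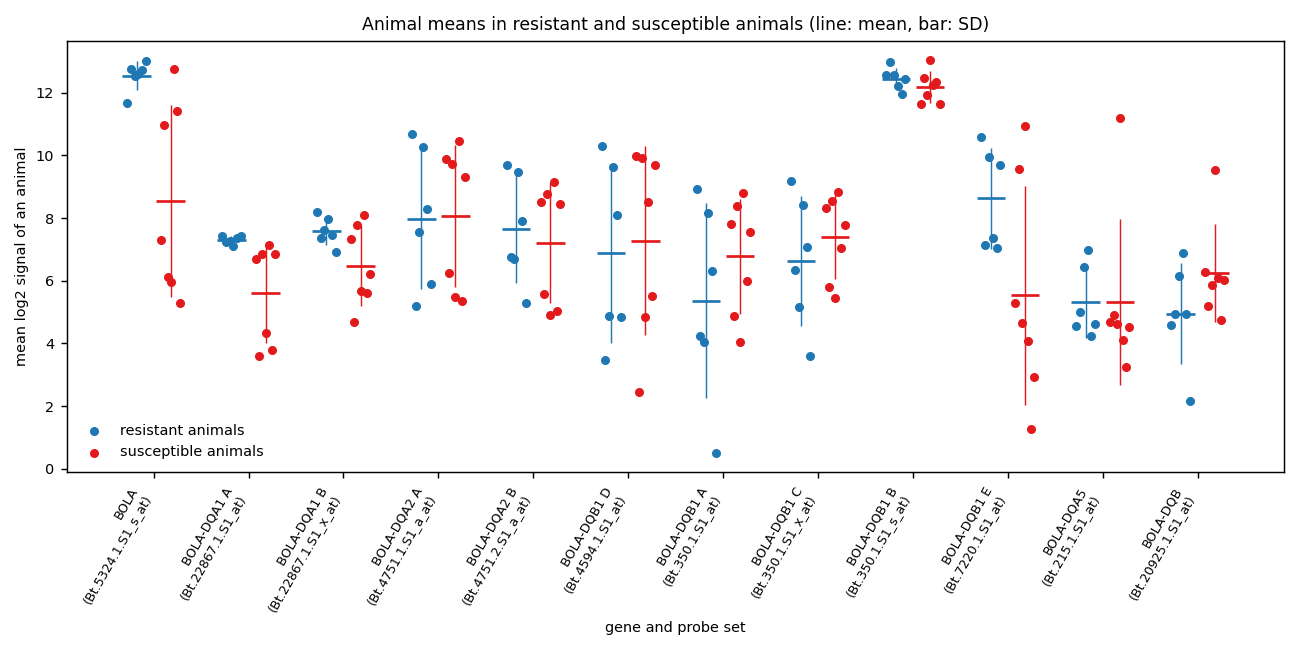
Mean log2 signal of each animal (points; labelled numbers) for the 12 member probe sets, resistant animals in blue at the left and susceptible animals in red at the right of each pair; lines give the mean and bars the SD over 6 and 7 animals. For BOLA the resistant animals lie at 11.66 to 13.02 and the susceptible animals divide between 5.28 and 12.77.

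The fit of 6 group means over all probe sets (limma, p adjusted by Benjamini and Hochberg over 13809 probe sets) called none of the 12 members between resistant and susceptible animals, a contrast between animals from which nothing is read for the members. It called 0% of all probe sets at 0 h and at 24 h, and 0.0145%, or 2 probe sets, at 48 h. At an unadjusted p under 0.05 there were 1, 4 and 4 members at 0 h, 24 h and 48 h, beside 623, 608 and 1391 of all probe sets. For BOLA, resistant minus susceptible was 3.73 ± 1.55 at 0 h, 3.73 ± 1.23 at 24 h and 5.45 ± 1.35 at 48 h (SE), with limma adjusted p of 1.0, 0.978 and 0.192. Without the 48 h array of susceptible animal 11, the only susceptible animal with high BOLA at that time, the 48 h difference was 6.81 ± 1.22 (SE). That fit leaves out the array that ran against the difference, so nothing is read from it. BOLA-DQA1 A stood 2.01 ± 0.56 higher in resistant animals at 24 h (SE; limma adjusted p = 0.978), in a fit whose residual spread holds the differences between animals.

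Change with time was asked within animals, with the animal as a fixed term that takes up its stable level. Over both phenotypes together, limma called 0 of 12 members for 24 h minus 0 h, 48 h minus 0 h and 48 h minus 24 h. The background was 0%, 0.0145% and 0% of 13809 probe sets, and 0, 0 and 1 members had an unadjusted p under 0.05, beside 7.44%, 14.3% and 8.26% of all. The differences of the members were -0.39 to 0.08 for 24 h minus 0 h (median -0.13), -0.37 to 0.43 for 48 h minus 0 h (median 0.21) and -0.23 to 0.67 for 48 h minus 24 h (median 0.39). The medians over all probe sets were -0.0075, -0.0035 and -0.0064. With the 3 arrays renumbered the call was 0 of 12 again in the 3 comparisons, beside 0%, 0.0145% and 0%, and the median of the members was -0.15, 0.29 and 0.45. At an unadjusted p under 0.05 (limma) there were then 0, 1 and 6 members, beside 8.81%, 15.3% and 9.25% of all probe sets. The members share the animals and the arrays. Of the members, 10 of 12 then lay above 0 for 48 h minus 0 h and 10 of 12 for 48 h minus 24 h. Within an animal the SD was then 0.42 to 1.17 for the 12 probe sets. The medians of arrays of high and low animals differed by 1.41 (BOLA-DQA1 A) to 6.77 log2 units (BOLA) over the 11 probe sets that had both. With the labelled numbers the SD within an animal was 0.46 to 2.36.

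Within each phenotype, the fit of 6 groups called 0 of 12 members, and 0% of all probe sets, for every pair of times in resistant and in susceptible animals, and likewise for the difference between phenotypes in the 24 h and in the 48 h change. At an unadjusted p under 0.05 these 8 comparisons held 0 to 1 members each, beside 0.95 to 11% of all probe sets. When a fixed term for the animal was added under the labelled numbers, 0 of 12 were called in each of the 8, where 84 of all probe sets were called for 48 h minus 0 h in resistant animals and 0 in the other 7. With that term and the 3 arrays renumbered, a fit added after the data were seen, 1 of 12 was called for 48 h minus 0 h in resistant animals, beside 0.782% of all probe sets (108 of 13809). None of 12 was called for 48 h minus 24 h in resistant animals, beside 0.116%, and none in the other 6 comparisons, beside 0%. At an unadjusted p under 0.05 this fit held 6 members for 48 h minus 24 h in resistant animals, beside 16.4% of all probe sets. It held 7 for 48 h minus 0 h there, beside 19.5%. For the difference between phenotypes of the 48 h change it held 5, beside 5.38%. The other comparisons held 0 to 3, beside 2.51 to 7.64%.

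The probe set called was BOLA-DQB1 E. Its 48 h arrays, with the 3 arrays renumbered, read 11.16, 8.26, 6.56 and 10.61 in resistant animals 1, 2, 5 and 6, against 9.99, 6.55, 5.05 and 9.10 at 0 h. It was higher at 48 h in 4 of 4 resistant animals with both times, by 1.17 to 1.71. The fitted difference was 1.34 ± 0.28 (SE; limma adjusted p = 0.0415). In susceptible animals 9, 10 and 11 the 48 h arrays read 4.43, 10.23 and 3.89, against 5.30, 11.39 and 5.32 at 0 h. It was lower at 48 h in 3 of 3 susceptible animals, with a fitted difference of -1.11 ± 0.33 (SE; limma adjusted p = 1.0). The difference between phenotypes of the 48 h change was 2.45 ± 0.43 (SE; limma adjusted p = 0.145) and so was not called. Signals of resistant animal 2 at 0 h and of resistant animal 5 and susceptible animals 9 and 11 at both times lay below the array median.

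This call rests on the renumbering. Under the labelled numbers the same difference in resistant animals was 0.80 ± 0.75 (SE; limma adjusted p = 0.615), with the 3 arrays left out it was 1.48 ± 0.40 (adjusted p = 0.150), and with no term for the animal it was 1.19 ± 1.66 (adjusted p = 0.815). Of 30 fits that each left out 1 array, 16 kept the call and 14 did not, 13 of them without a resistant array and 1 without the 0 h array of susceptible animal 9. The adjusted p ran from 0.0221 to 0.166 and the difference from 1.23 to 1.46.

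Other members ran the same way in resistant animals without a call. With the 3 arrays renumbered, BOLA-DQA1 A was higher at 48 h than at 0 h in 4 of 4 resistant animals, by 0.60 to 1.46 (fitted 1.03 ± 0.25, SE; limma adjusted p = 0.0557). BOLA-DQB1 B was higher in 4 of 4, by 0.46 to 1.16 (fitted 0.74 ± 0.23, SE; adjusted p = 0.108). BOLA was higher in 4 of 4, by 0.32 to 0.84 (fitted 0.60 ± 0.28, SE; adjusted p = 0.239). In all, 11 of 12 members had a fitted difference above 0, with a median of 0.73 against -0.01 over all probe sets, and 7 had an unadjusted p under 0.05, beside 19.5% of all probe sets. In susceptible animals 1 of 12 lay above 0, with a median of -0.25. Both counts include arrays below the array median. For BOLA-DQA1 A, 1 of the 4 resistant animals had both arrays at or above it. BOLA-DQA5 and BOLA-DQB had no common direction: 48 h minus 0 h ran from -0.75 to 1.47 for BOLA-DQA5 and from -2.10 to 1.65 for BOLA-DQB in resistant animals.

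**Figure D5:**
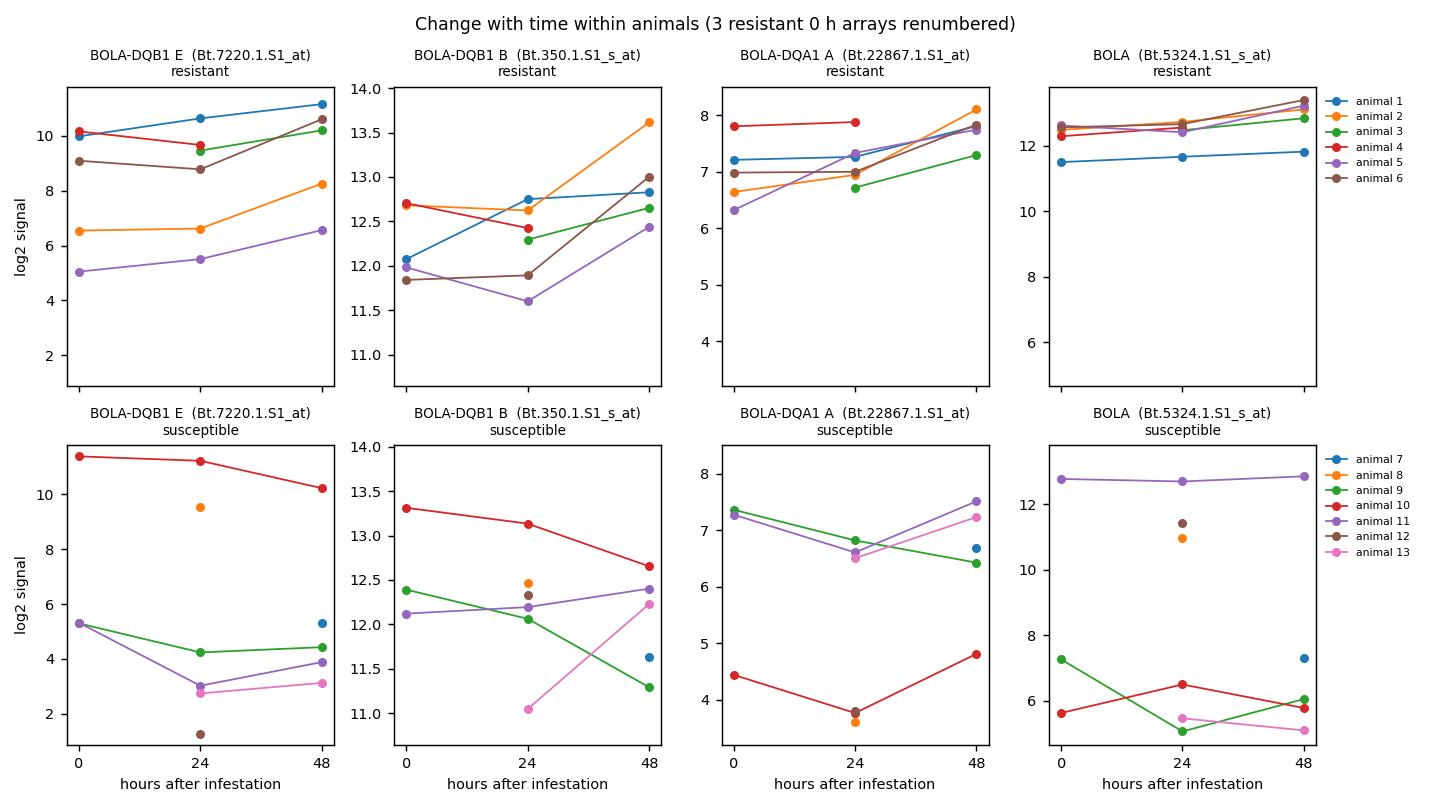
Log2 signal (y axis; its range differs between columns) by hours after infestation (x axis) of 4 member probe sets, with a line for each resistant (upper row) or susceptible animal (lower row) and 3 resistant 0 h arrays renumbered. BOLA-DQB1 E was higher at 48 h than at 0 h in 4 of 4 resistant animals and lower in 3 of 3 susceptible animals, while the lines of different animals stay apart.

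Macrophage and T cell markers were set beside the 48 h values of resistant animals. The mean log2 signal of 5 markers (CD68, AIF1, CSF1R, C1QA and C1QC, each measured) was 9.60 to 10.47 in resistant animals at 48 h (median 9.94), against 8.42 to 9.44 at 0 h and 8.29 to 9.25 at 24 h. In susceptible animals it was 7.09 to 9.47 at 48 h and 8.58 to 9.09 at 0 h. In the fit with the 3 arrays renumbered, AIF1 was called for 48 h minus 0 h in resistant animals (1.03 ± 0.21, SE; limma adjusted p = 0.0415) and all 5 lay above 0, with a median of 1.03, while 0 of 5 lay above 0 in susceptible animals, with a median of -0.62. With the labelled numbers and no term for the animal none of the 5 was called in resistant animals, all lay above 0 and the median was 0.92. The 5 T cell markers (CD3D, CD3E, CD3G, CD2 and CD247) averaged 7.13 to 8.32 in resistant animals at 48 h, against 7.21 to 7.99 at 0 h, and 7.32 to 8.22 in susceptible animals at 48 h, against 8.02 to 8.15 at 0 h. With the 3 arrays renumbered 5 of 5 lay above 0 in resistant animals (median 0.47) and 0 of 5 in susceptible animals (median -0.33), with none called. The part of either list in the 48 h values of the DQ genes was not tested. In a biopsy, more cells of a type and more RNA per cell cannot be told apart.

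Other genes of antigen presentation were taken from 2 lists. Of 17 listed class II genes, 9 were measured, and their share of variance between animals, with the 3 arrays renumbered, had a median of 40.8% and reached 57.7% (IFI30, a lysosomal thiol reductase). BOLA-DRA, the alpha chain of the DR molecule, and BOLA-DRB3, its main beta chain, had 42.8 and 40.8%. Each listed gene was read by 1 probe set, the kept one with the highest mean signal, and BOLA-DRB3 has 2 on the array. So read, the DR genes, further along in the gene order, stood below the median of 50.1% over all probe sets. The DQ and BOLA probe sets were all counted, and 11 of 12 were above 80%. For BOLA-DQB1 the rule of the lists would take BOLA-DQB1 B, which had 58.0%. Of 15 listed class I genes, 11 were measured, with a median of 38.5%. The highest was TAP2, a subunit of the peptide transporter, at 77.2%. The listed BOLA-A, BOLA-NC1 and JSP.1 have no probe set on the array by symbol. High shares were not limited to the members. A probe set annotated BoLA, another gene than BOLA, had 92.0% renumbered and 81.8% as labelled. One annotated BOLA-N had 91.1% and 62.6%. Both symbols are on neither list.

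The same fit with the 3 arrays renumbered was used for 48 h minus 0 h in resistant animals. There 1 of 9 class II genes passed the test, beside 0.782% of all probe sets, and 8 of 9 lay above 0, with a median of 0.95. The gene called was BOLA-DRA, higher by 1.05 ± 0.21 (SE, limma adjusted p = 0.0415). BOLA-DMA and BOLA-DMB, the chains of the peptide-loading molecule DM, missed the threshold at 0.98 ± 0.23 and 0.97 ± 0.23 (SE; adjusted p = 0.0525 each). Of 11 class I genes 3 were called higher and none lower, and 10 of 11 lay above 0, with a median of 0.42. Those called were PSMB8, higher by 1.10, and PSMB9, by 1.04 (immunoproteasome subunits), and B2M, the class I light chain, by 0.42. The median over all probe sets was -0.01. For 48 h minus 24 h, BOLA-DMA was the 1 of 9 class II genes called (1.16 ± 0.21 SE, limma adjusted p = 0.0412). Of the class I genes 0 of 11 were called, and 0.116% of all probe sets. In susceptible animals 0 of 9 and 0 of 11 were called for 48 h minus 0 h, with medians of -0.23 and -0.05. With the labelled numbers and no term for the animal none of the 20 was called in any of these comparisons.

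Genes outside the members were set beside them by their animal means. For each of the 12 probe sets the 3 probe sets of other named genes with the largest positive Pearson correlation over the 13 animals (labelled numbers) were taken, 31 genes in all, with correlations of 0.75 to 0.91. Of these, 1 lies on chromosome 23, POLR1H, which correlated at 0.83 with BOLA-DQB1 D and at 0.82 with BOLA-DQA2 A. FAM98A was the closest to BOLA-DQB1 D, at 0.91, and to both BOLA-DQA2 probe sets, at 0.88 and 0.90, but its animal means spanned 10.81 to 11.13. CCL5, a chemokine, had 0.83 with BOLA-DQA2 A. TMEM234 was closest to BOLA, at 0.88, with animal means of 6.88 to 7.57. With the 3 arrays renumbered these correlations ran from 0.32 to 0.89. They were picked as the largest, and the points share the animals.

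Among probe sets of a single named gene, the share between animals was 90% or more for 65 with the 3 arrays renumbered. Of the 61 with a chromosome, 11 lie on chromosome 23. Of the 11, 7 are members, which were chosen for differing between animals, and 4 are not. Of all 8582 such probe sets 3.40% lie on chromosome 23, and the 11 are not read against that share.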

How the data were processed

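RNA from 30 skin biopsies of 13 cattle was hybridised to a bovine Affymetrix array. The deposited values are log2 signals that the authors obtained with MAS5 (per the submitters' processing notes, which name no version). In the linear signal the 2% trimmed mean was 500.0 in every array, and no 2 arrays were identical. The values were used as deposited, and 0 value columns were left unmapped. The array holds 24128 probe sets. After removal of 112 controls, a probe set was kept where 3 or more arrays had it at no less than their own median (57.5%). Gene symbols came from the platform annotation: 13292 probe sets had 1 symbol, 86 several and 10638 none. No coordinates are printed, because no build is stated for the files.

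Members and lists were chosen with earlier results of these data known. Named genes are all member probe sets, the 3 probe sets most correlated with each, and the listed antigen presentation genes past the test or with the largest share between animals. Group means were fitted with limma 3.58.1 in R 4.3.3 (eBayes with an intensity trend, two-sided, Benjamini-Hochberg, threshold 0.05), and so were the fits with the animal as a fixed term. Only the fit of time over both phenotypes together was tested on simulated data, for 48 h minus 24 h. The fit of group means and the fits of time within each phenotype were not tested in this way. Shares of variance are sums of squares for animal, then time. Animal means are given by phenotype with their SD. An exact permutation test of them (SciPy 1.17.1) was planned and run, but its p-values are not given, because the members were chosen for differing between these animals. Same-numbered arrays come from the same animal per the labels, so the animal number pairs the samples. Alternatives were quantile normalization, median centring, no filter, an offset of 16, the animal as a random or fixed block, other sets of arrays, leaving out each array or animal, and 3 arrays renumbered. Plots were drawn with matplotlib 3.10.9.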

Additional observations from a re-analysis of the deposited data

Results flagged for a closer look

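In 13 of 60 groups of 4 to 10 arrays, 1 array stood apart from the others by Dixon's criterion, in 7 of the 12 member probe sets. By chance about 1 in 20 such groups would be so marked, but the members were chosen for differing between animals, so their count is not read against that rate. Most are the divisions between animals described above, seen within a group.

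BOLA-DQA5 read 9.98 in the resistant 0 h array labelled 3 (others 4.10 to 4.99) and 9.88 in resistant animal 4 at 24 h (others 4.17 to 4.79). Susceptible animal 10 read 11.51 at 24 h (others 3.24 to 5.33) and 10.73 at 48 h (others 4.30 to 4.89). BOLA-DQB read 8.49 in the resistant 0 h array labelled 3 (others 4.32 to 5.15). In susceptible animal 10 it read 9.98 at 24 h (others 4.74 to 5.94) and 8.73 at 48 h (others 6.13 to 6.54).

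Susceptible animal 10 was also the low array of its 48 h group in 4 probe sets. BOLA-DQA2 A read 6.05 there (others 9.38 to 10.59). For BOLA-DQB1, BOLA-DQB1 A read 2.45 (others 7.81 to 9.19), BOLA-DQB1 C 5.04 (others 8.07 to 9.15) and BOLA-DQB1 D 4.87 (others 8.68 to 10.23). BOLA read 11.66 in resistant animal 1 at 24 h (others 12.41 to 12.72) and 12.85 in susceptible animal 11 at 48 h (others 5.10 to 7.31).

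Every resistant animal moved one way and every susceptible animal the other in 3 cases, with the 3 arrays renumbered. For BOLA-DQA1 A, 24 h minus 0 h averaged 0.29 in resistant and -0.63 in susceptible animals, a difference of 0.92, which limma did not call (fitted 0.96 ± 0.37, SE; adjusted p = 1.0). For BOLA-DQA1 B, 48 h minus 0 h averaged 0.76 in resistant and -0.43 in susceptible animals, a difference of 1.19, which limma did not call (fitted 0.93 ± 0.46, SE; adjusted p = 0.938). For BOLA-DQB1 E, 48 h minus 0 h averaged 1.48 in resistant and -1.15 in susceptible animals, a difference of 2.63, which limma did not call (fitted 2.45 ± 0.43, SE; adjusted p = 0.145).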

How the results depend on the processing

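The choice that moved the results most was the animal number of 3 resistant 0 h arrays. The median share of variance between animals over the 12 member probe sets was 77.5% with the labelled numbers, 93.0% with the 3 arrays renumbered and 92.7% without them. For 48 h minus 0 h in resistant animals, 0 members were called in the fit of group means and 1 with the animal as a fixed block and the 3 arrays renumbered. That fit and its alternatives were chosen after seeing the data: it called 0 with the labelled numbers, 0 without the 3 arrays, and 0 to 2 when each array was left out. For 48 h minus 24 h in resistant animals and for the difference between phenotypes of the 48 h change it called 0, and 0 to 1 with each array left out. For resistant minus susceptible at 48 h leaving out each array gave 0 to 1 members. The 1 was BOLA without the array of susceptible animal 11, the array that ran against the difference, and nothing is read from it. BOLA-DQA1 A ran from -0.33 to 1.14 for resistant minus susceptible at 0 h with each array left out, and was below 0 without susceptible animal 10. The replicate block changed no other call of a member.

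Over all probe sets, 48 h minus 0 h in resistant animals had 0 calls in the fit of group means, 2 with the animal as a random block, 84 as a fixed block and 108 as a fixed block renumbered. Resistant minus susceptible at 48 h had 2, against 10 with median centring, 4 with no filter and 0 with only the arrays compared. Within animals, 48 h minus 0 h had 2, and 0 with quantile normalization, median centring, no filter or no replicate block. In all, 740 results that count calls or give the median share stayed alike and 28 moved. Of the remaining results, which include the values of single probe sets, 962 stayed alike, 42 moved, 7 became stronger and 1 reversed. The causes were not tested. Signals below the array median include most low animals here. How well such signals can be ordered was not tested, so differences among them are read with caution.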

Other observations

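4 other genes with a large share of variance between animals are named here after their values were seen, with no list fixed and no test. PMEL, a melanosome protein, had 97.0% with the 3 arrays renumbered and 62.1% with the labelled numbers. TYRP1 and TYR, enzymes of melanin synthesis, had 96.2 and 95% renumbered, and 72.8 and 66.6% as labelled. MC1R, the melanocortin receptor of pigment cells, had 95.9% renumbered and 71.7% as labelled.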
